A study of Rattus norvegicus with 12 samples.

Results

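The genes described here mark fat cells, which lie in the epineurium, the connective sheath of the sciatic nerve, and in the tissue around it. The 10 genes listed are Adipoq, Plin1, Cidec, Aqp7, Ces1d, Lep, Fabp4, Pck1, Scd and Cfd. They were chosen by values measured on these arrays, those of the injected against the contralateral sciatic nerve and of the dorsal root ganglia (DRG) of nude rats, so their levels and ratios are a description and no test was made of them. Of the 10 genes, 9 were paired with a probe, 1 probe each, among the 15159 named genes of the array, and 8 were well above background on at least 1 of the 12 arrays. Plin1 is not analysed here, because the annotation used paired no probe with it, and Lep stayed under the well-above-background limit on all 12.

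A fat cell holds its triglyceride in a single large droplet, coated with proteins such as perilipin and enlarged by CIDEC. It takes up fatty acids with the help of binding proteins such as FABP4, makes others itself with stearoyl-CoA desaturase, and releases glycerol through the channel AQP7 when the droplet is broken down. It also secretes hormones, among them adiponectin and leptin, and its genes are switched on by the nuclear receptor PPARG together with factors of the C/EBP family.

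The study asked how a fragment of myelin basic protein, MBP84-104, acts in the nerve of rats with and without T cells. Each of the 12 arrays held Cy3-labelled total RNA pooled from 3 adult female rats of 8 weeks. In 6 groups the rats were wild-type (Sprague-Dawley by the labels) and in 6 they were athymic nude rats (Hsd:RH-Foxn1rnu), which carry a mutation of Foxn1, lack a working thymus and so lack mature T cells. Within each rat type there was 1 array of the left sciatic nerve, into which 50 μg of MBP84-104 in 5 μL had been injected, 1 of the right nerve, labelled as the PBS injection site, 1 each of the left and right DRG, and 1 each of the left dorsal part of the spinal cord at the lumbar enlargement and above it. By the labels the tissue was taken 12 days after the injection in wild-type rats but 7 days after it in nude rats, where the study's text gives 7 days for both, and that text names heterozygous rnu+/− rats as wild-type and 6 rats per group. Rat type, strain and day therefore cannot be told apart, and for the DRG and the cord the slide cannot either, because the wild-type DRG and cord arrays lay on slide 2 and the other 8 arrays on slide 1. With 1 array per group no difference has a replicate check, and no p-value is given. The number of arrays limits the precision of every value.

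Values are log2 spot signals after background subtraction, minus the median of the array, so a level of 0 is the typical probe of that array and a step of 1 is a factor of 2. The median signal ranged from 23.5 on the array of the injected nude nerve to 122 on that of the wild-type cord above the lumbar enlargement, and between 59.5% and 76.9% of spots were well above background. All 9 measured genes of myelinating Schwann cells were well above background on all 4 nerve arrays, and all 10 genes of sensory neurons on all 4 DRG arrays. These counts do not tell the tissues apart. The 9 Schwann cell genes were also so on all 4 DRG arrays, and 8 of the 10 sensory neuron genes on all 4 cord arrays. Summed as multiples of the array median, the sensory neuron genes gave at least 1611 in the DRG and at most 1205 elsewhere. The sums of the Schwann cell genes overlapped between nerve (from 6677) and DRG (up to 7259). Where a gene was well above background on 1 array of a pair only, the ratio was taken against the lowest signal well above background on the other array, or the gene's own signal where that was higher, and is written as a bound ("at least"). Where even that put the ratio on the opposite side, no ratio is given.

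The 8 measured genes were higher in the contralateral nerve than in the contralateral DRG of both rat types, and Cidec, Aqp7 and Pck1 were well above background in the nerve alone. Adipoq in the contralateral nerve was at least 346-fold higher than in the contralateral DRG of wild-type rats and at least 215-fold higher in nude rats. Fabp4 was 103-fold and 191-fold higher, and Cfd 64.4-fold and 45.3-fold higher. Ces1d was at least 133-fold and at least 98.4-fold higher. Scd differed least in wild-type rats, with contralateral nerve levels only 1.73-fold higher than in the DRG of wild-type rats and 6.60-fold higher in nude rats, and it was well above background on all 12 arrays, as was Cfd. In wild-type rats Scd was lower in the contralateral nerve (6.00) than in the cord above the lumbar enlargement (6.12). In nude rats it was 4.22-fold higher in the nerve. How much surrounding fat was taken with each nerve is not given in the sources used here. In such bulk tissue, fewer fat cells and less RNA of these genes per fat cell cannot be told apart.

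**Figure D1:**
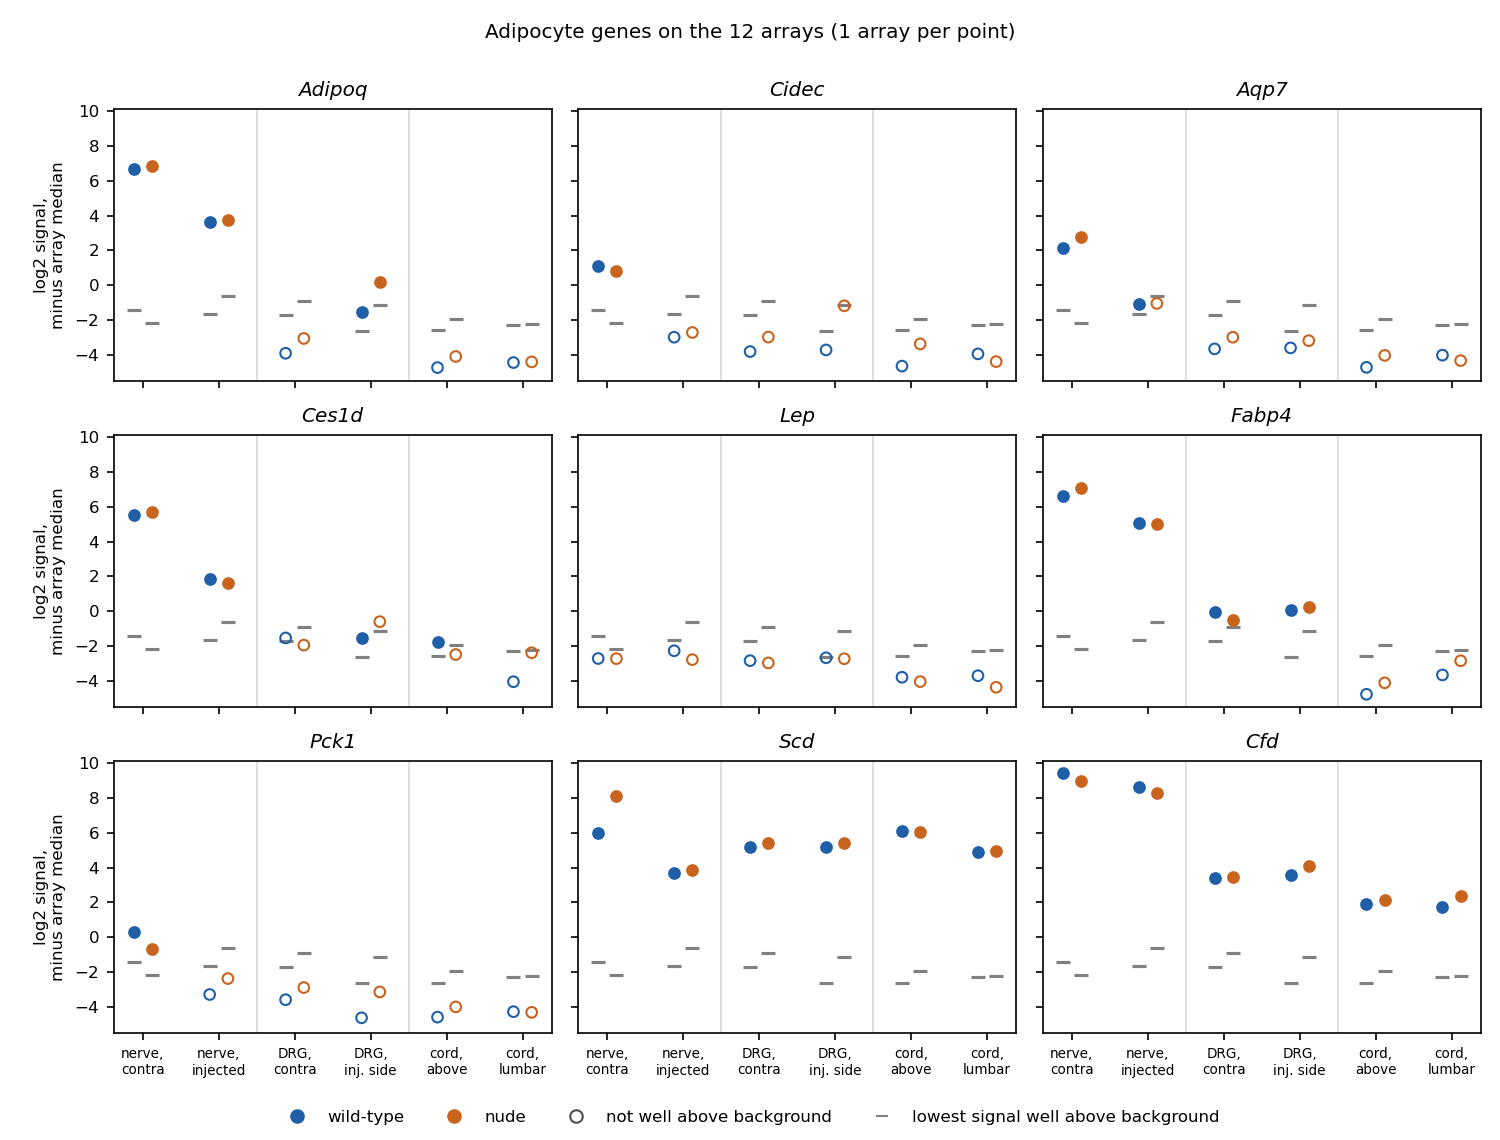
Level of each of the 9 adipocyte genes with a probe on the 12 arrays, as log2 signal minus the array median, with 1 point per array (wild-type blue, nude orange). Open points are not well above background and grey bars mark the lowest signal well above background on that array. Adipoq, Cidec, Aqp7, Ces1d, Fabp4, Scd and Cfd lie lower in the injected nerve of both rat types, whereas Scd stays between 4.89 and 6.12 in the DRG and cord.

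In both rat types the measured genes were lower in the nerve that received the peptide. In wild-type rats 8 genes could be measured, all 8 were lower and 7 were at least 2-fold lower, where 4.08% of the 10213 genes tested were at least 2-fold lower and 4.68% at least 2-fold higher. In nude rats 7 could be measured, all 7 were lower and 6 were at least 2-fold lower, where 13.5% of the 9456 genes tested were at least 2-fold lower and 7.52% at least 2-fold higher. Genes well above background only in the contralateral nerve (Cidec in both, Pck1 in wild-type and Aqp7 in nude rats) could only come out lower. The counts restate the choice of the genes, and nothing is read from them. The median log2 ratio was −2.52 in wild-type rats, where that of all genes was −0.05, and −3.12 in nude rats, where that of all genes was −0.38. Relative to all genes the median was −2.47 and −2.74. The share of all genes lower in the nude nerve depends on the scaling, since 530 genes were at least 2-fold lower and 1128 at least 2-fold higher with scaling to the 75th percentile of each array, against 1280 and 711 with the median.

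Among the secreted proteins, Adipoq encodes adiponectin, the most abundant hormone of fat cells. Its level was 3.64 in the injected and 6.70 in the contralateral wild-type nerve, and 3.73 and 6.86 in the nude nerves. The contralateral nerves of the rat types were close to each other, as were the injected nerves, and the injected nerve was 8.35-fold lower in wild-type and 8.72-fold lower in nude rats. Of the genes tested, 6 had a lower ratio than Adipoq in wild-type rats and 9 in nude rats.

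Cfd encodes complement factor D, or adipsin, a protease that fat cells secrete and that macrophages also make. Its level was 8.62 in the injected and 9.43 in the contralateral wild-type nerve, and 8.27 and 8.97 in the nude nerves. The ratios of −0.81 and −0.70 were the smallest of the measured genes, and 697 and 2684 genes had lower ones. Relative to the median of all genes the nude value was −0.31. Lep, which encodes the hormone leptin, gave signals between 2.23 and 8.99 on the 12 arrays and was not well above background on any, so the arrays hold no comparison for it.

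Of the genes of the lipid droplet and of its breakdown, Ces1d encodes a carboxylesterase that splits triglyceride. Its level was 1.85 in the injected and 5.52 in the contralateral wild-type nerve, and 1.64 and 5.73 in the nude nerves. The injected nerve was 12.7-fold lower in wild-type and 17.0-fold lower in nude rats, and only 1 of 10213 and 2 of 9456 genes had a lower ratio. Aqp7, the glycerol channel, was at −1.10 in the injected and 2.13 in the contralateral wild-type nerve, a 9.37-fold difference. In the nude nerves it was at 2.78 on the contralateral side and at −1.05, not well above background, on the injected side, a bound of −3.40 on the log2 scale. Cidec, which enlarges the droplet, was at 1.08 in the contralateral wild-type nerve and 0.83 in the contralateral nude nerve, and it was not well above background in either injected nerve (−3.00 and −2.72). The injected nerve was therefore at least 6.69-fold lower in wild-type and at least 2.73-fold lower in nude rats, where the dimmer array sets a higher floor.

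Of the genes of fatty acid handling, Fabp4 encodes the fatty acid binding protein of fat cells, which endothelial cells and macrophages also hold. Its level was 5.07 in the injected and 6.64 in the contralateral wild-type nerve, and 5.01 and 7.09 in the nude nerves, which is 2.97-fold and 4.24-fold lower on the injected side. Scd encodes stearoyl-CoA desaturase, which makes monounsaturated fatty acids and is expressed in myelinating Schwann cells too. Its level was 3.71 in the injected and 6.00 in the contralateral wild-type nerve, and 3.85 and 8.15 in the nude nerves. The injected nerves were alike, the contralateral nude nerve stood above the contralateral wild-type nerve by 2.15, and the ratio was accordingly 4.91-fold in wild-type but 19.7-fold in nude rats, where 1 gene had a lower one. Pck1, which makes glycerol phosphate for triglyceride in fat cells, was at 0.31 in the contralateral wild-type nerve and not well above background in the injected one (−3.29), at least 3.91-fold lower, though its log2 ratio was −0.64 after normexp background correction, an alternative that draws low signals together. In nude rats it was at −0.66 in the contralateral nerve and at −2.38, not well above background, in the injected one, and because the lowest signal well above background on the injected array stood above the contralateral level, no bound could be given.

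**Figure D2:**
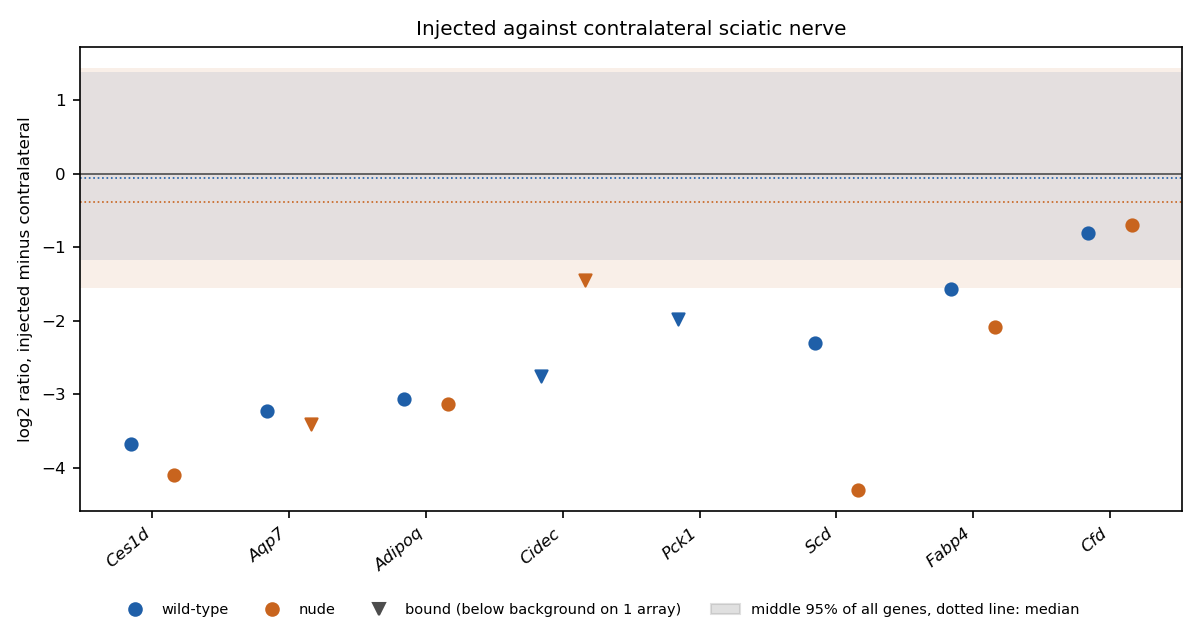
Log2 ratio of the injected over the contralateral sciatic nerve for the 8 measured adipocyte genes, 1 ratio of 2 arrays per point (wild-type blue, nude orange). Triangles are bounds, shaded bands hold the middle 95% of all genes and dotted lines mark their medians. In wild-type rats all but Cfd lie under the band, which ends at −1.18, and in nude rats all but Cfd and the bound for Cidec lie under the band ending at −1.55.

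The order of the ratios differed between the rat types mainly through Scd. The wild-type minus nude difference of the ratios was 0.06 for Adipoq, 0.17 for Aqp7 (against a bound), 0.42 for Ces1d, 0.51 for Fabp4 and −0.11 for Cfd, where the median over 9399 genes was 0.35. For Scd the ratios themselves were −2.30 and −4.30. These differences were not tested. Between the contralateral nerves themselves, nude rats exceeded wild-type rats by a median of 0.18 over 8 genes, where all genes gave 0.23, with values from −0.96 for Pck1 to 2.15 for Scd. This comparison shares its arrays with the ratios above.

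The array design holds close relatives of several of these genes, and the probe sequences were not searched for shared matches. Scd2, the desaturase of brain and myelin, had a ratio of −1.32 for wild-type rats and −1.71 for nude rats. Fabp5, a relative of Fabp4, was higher in the injected nerve (0.69 and 0.49), and so was Plin2, the droplet coat protein of many cell types (1.18 and 0.36). Pck2, the mitochondrial form of Pck1, had ratios of 0.05 and 0.24. Of the carboxylesterases, Ces1e was at least 3.71-fold and at least 1.16-fold lower. Relatives of the listed genes thus had ratios on both sides of 0 in these arrays.

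The promoters of the listed genes are given because these genes were low together and because PPARG and C/EBP factors are the known activators of fat cell genes. The RefSeq promoter table of rat (build GRCr8), which holds 250 bases before and 50 after each gene's start, had 8 of the 10 genes, all but Fabp4 and Aqp7. Searched on both strands were AGGTCA (the single site of a nuclear receptor), a pair of the looser site AGGNCA in the same direction and 1 base apart (the form bound by PPARG with RXR), TTNCNCAA (C/EBP) and TATAAA (the core promoter box). Adipoq lies on the minus strand at chr11:91240120-91240419, Ces1d on the plus strand at chr19:30046244-30046543, Cidec on the minus strand at chr4:148137066-148137365 and Pck1 on the plus strand at chr3:182348322-182348621. They are written 5′ to 3′ along each gene, with matches in capitals.
Adipoq: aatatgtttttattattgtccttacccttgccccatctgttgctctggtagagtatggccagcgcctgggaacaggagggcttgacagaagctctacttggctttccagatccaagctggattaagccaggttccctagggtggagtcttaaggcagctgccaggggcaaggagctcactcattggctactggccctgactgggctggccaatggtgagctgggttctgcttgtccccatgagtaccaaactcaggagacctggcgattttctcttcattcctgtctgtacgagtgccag
Ces1d: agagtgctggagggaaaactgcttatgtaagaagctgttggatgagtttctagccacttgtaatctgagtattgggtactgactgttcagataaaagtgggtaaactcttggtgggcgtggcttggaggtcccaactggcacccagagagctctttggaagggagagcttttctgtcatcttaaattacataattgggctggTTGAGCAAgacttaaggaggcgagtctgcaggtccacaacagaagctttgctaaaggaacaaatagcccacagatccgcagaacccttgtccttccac
Cidec: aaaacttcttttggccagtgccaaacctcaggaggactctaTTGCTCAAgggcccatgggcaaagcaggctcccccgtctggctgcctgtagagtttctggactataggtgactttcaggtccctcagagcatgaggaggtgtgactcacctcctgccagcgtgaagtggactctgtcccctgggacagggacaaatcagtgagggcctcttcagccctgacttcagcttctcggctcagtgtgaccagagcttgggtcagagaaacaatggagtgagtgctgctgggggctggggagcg
Pck1: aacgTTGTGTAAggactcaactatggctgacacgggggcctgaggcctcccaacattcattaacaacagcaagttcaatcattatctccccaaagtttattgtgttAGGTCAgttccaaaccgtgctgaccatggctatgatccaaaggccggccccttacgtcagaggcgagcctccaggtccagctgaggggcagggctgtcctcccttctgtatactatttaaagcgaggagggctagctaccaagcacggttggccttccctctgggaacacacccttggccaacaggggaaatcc

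Of these, Cidec holds a C/EBP match 209 bases before the start, Ces1d holds 1 on the opposite strand 48 bases before it, and Pck1 holds both a C/EBP match on the opposite strand 246 bases before it and AGGTCA 144 bases before it. Adipoq holds none of the 4 letter patterns in this window. TTNCNCAA was found in 5 of the 8 promoters (also Plin1 and Lep) and in 13.2% of all 27457 promoters of the table. AGGTCA was found in 1 of 8 and 15.7%, the paired sites in 0 of 8 and 0.412%, and TATAAA in 0 of 8 and 14.3%. A match is a description of letters, not a bound site, and no match says only that these letters are not in this window.

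A wider set of 59 further genes of fat cells was listed by role, and 53 had a probe. In the wild-type nerve 41 could be measured, 33 were lower on the injected side, 15 at least 2-fold lower and 2 at least 2-fold higher, with a median of −0.74. In the nude nerve 40 could be measured, 37 were lower, 22 at least 2-fold lower and 2 at least 2-fold higher, with a median of −1.43, which is −1.05 relative to all genes. Of all genes, 5646 of 10213 were lower in wild-type and 6800 of 9456 in nude rats. At least 2-fold lower were 4.08% and 13.5% of all genes, and at least 2-fold higher 4.68% and 7.52%. Genes well above background only in the contralateral nerve enter these counts and could only come out lower on the injected side. The lowest ratio in both was that of Acvr1c, a receptor of the TGF-beta family found in fat cells, at −2.32 and at most −3.16. Its nude ratio was −1.04 with the mean over all probes. The 2 higher genes were the same in both rat types. Gpihbp1, which carries lipoprotein lipase across capillary endothelium, was higher by 2.80 and 3.23, and Dio2, a deiodinase that activates thyroid hormone, by at least 1.89 and by 1.99, or 0.66 and 0.68 after normexp. Acvr1c, Gpihbp1 and Dio2 are named after their values were seen.

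The counts by role stand beside the same shares of all genes at least 2-fold lower, 4.08% in wild-type and 13.5% in nude rats, and the nude count of all genes fell from 1280 to 530 with the 75th percentile. Of the genes of droplet breakdown, 3 of 4 measured genes were at least 2-fold lower in wild-type and 3 of 5 in nude rats. Pnpla2, the first lipase of the droplet, had ratios of −1.54 and −2.49, whereas Abhd5, its activator, had −0.24 and −0.17. The nude value of Abhd5 turned to 0.12 with the 75th percentile, as did those of Rarres2 and Irs1 below, to 0.08 and 0.24. Of the genes of fatty acid uptake and triglyceride synthesis, 5 of 9 and 6 of 10 were at least 2-fold lower. Lpl, lipoprotein lipase, had −1.57 and −1.92, Acsl1, which activates fatty acids, −1.47 and −1.86, and Cd36, a fatty acid transporter that macrophages and endothelium also hold, −0.53 and −1.17 (−0.80 with quantile normalization).

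The genes of fatty acid synthesis gave 3 of 7 and 4 of 6 at least 2-fold lower. Fasn, fatty acid synthase, had ratios of −0.99 and −1.93, Acaca, acetyl-CoA carboxylase, −0.88 and −0.60, and Acly, ATP citrate lyase, −0.67 and −0.93. Of the other secreted proteins 2 of 6 and 3 of 6 were at least 2-fold lower. Retn, which encodes resistin, a hormone of rodent fat cells, was at 6.80 in the contralateral and 4.50 in the injected wild-type nerve and at 7.07 and 4.28 in the nude nerves, ratios of −2.30 and −2.79. Rbp4, a retinol carrier, had −0.74 and −1.56, and Rarres2, which encodes chemerin, −0.02 and −0.21.

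The transcription factors differed among themselves, with 1 of 5 and 2 of 5 at least 2-fold lower. Pparg, the main regulator of fat cell genes, was at 4.75 in the contralateral and 3.09 in the injected wild-type nerve, with ratios of −1.66 for wild-type rats and −1.75 for nude rats. Klf15, a factor that rises late in fat cell formation, had −0.77 and −1.96, and Nr1h3, which encodes the sterol sensor LXR-alpha, 0.05 and −0.37. Of the genes of insulin and hormone response, 1 of 7 and 2 of 5 were at least 2-fold lower. Slc2a4, the insulin-driven glucose transporter of fat and muscle, had −0.45 and −0.90, and Irs1, which relays the insulin signal, −0.11 and −0.06. Insr, the insulin receptor, had 0.19 in wild-type rats, the only measured gene of this list that was higher there, and gave no ratio in nude rats. Of the brown fat list only 3 genes could be measured in each rat type, and Ucp1, which defines brown fat, was not well above background on any nerve array. Cidea, a droplet protein of brown fat that is close to Cidec, had −0.95 and −1.67.

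**Figure D3:**
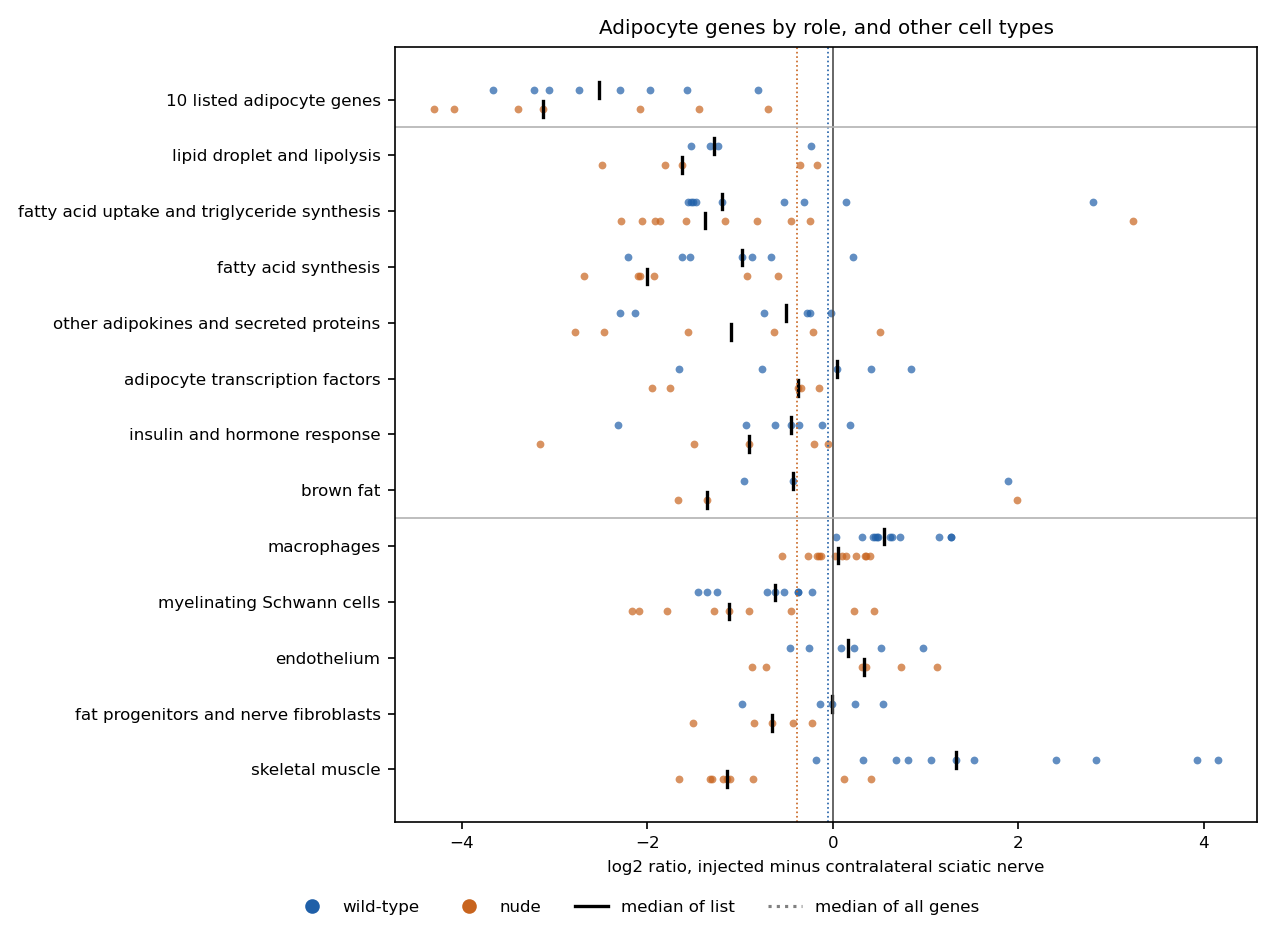
Log2 ratio of the injected over the contralateral nerve for each measured gene of the listed adipocyte genes, of the 7 further role lists and of 5 marker lists of other cells, 1 point per gene (wild-type blue, nude orange). Black bars are list medians and dotted lines the medians of all genes. The listed adipocyte genes lie at −2.52 (wild-type median) and −3.12 (nude median), macrophage genes at medians of 0.55 and 0.06, and skeletal muscle genes at 1.33 in wild-type and −1.14 in nude rats.

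Genes of other cell types also differed between the same nerves. All 9 genes of myelinating Schwann cells were lower in the injected wild-type nerve, with a median of −0.63 and 3 at least 2-fold lower. In the nude nerve 7 of 9 were lower, with −1.12 and 5 at least 2-fold lower. Of all genes, 5646 of 10213 were lower in wild-type and 6800 of 9456 in nude rats, and 4.08% and 13.5% were at least 2-fold lower. The nude count of 7 of 9 is near the share of all genes, and nothing is read from it. Relative to all genes the Schwann cell medians were −0.58 and −0.74. Their summed level, as multiples of the array median, was 6677 against 9349 in wild-type and 7809 against 8528 in nude rats. Mbp was the largest part of each of these sums, at log2 levels of 12.24 against 12.61 and 12.58 against 12.35. In wild-type rats the injected side was higher for all 12 macrophage genes (median 0.55, summed level 3740 against 2261) and in nude rats for 7 of 12 (median 0.06, 2781 against 2559). Of all genes, 4567 of 10213 were higher in wild-type and 2656 of 9456 in nude rats. Relative to all genes the macrophage medians were 0.60 and 0.44. Red cell genes were higher in both (medians 1.94 and 2.87). The summed level of the 9 adipocyte genes was 458 against 1012 and 374 against 1099. Cfd, which had the smallest ratios of the measured genes, was the largest part of each of these sums. The part of these other cells in the adipocyte result was not tested.

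The genes of fat progenitors and nerve fibroblasts had a median of −0.01 for wild-type rats and −0.66 for nude rats, with 0 of 5 and 1 of 5 at least 2-fold lower. Pdgfra, the receptor that marks these cells, had −0.01 and −0.85, and Dpp4, a surface peptidase of progenitors, 0.54 and −0.66. Pi16, a surface protein of fibroblasts in vessel and nerve sheaths, was lower in both rat types, at −0.99 and −1.50. With the mean over all probes its ratios were −0.67 and −0.37. Endothelial genes had medians of 0.16 and 0.34, and of 6 measured in each rat type 4 were higher and 2 lower, with lowest ratios of −0.46 and −0.87. Pecam1, a junction protein of vessels, was at 0.97 and 0.73, and Cdh5 at 0.09 and 1.12. Perineurial genes had 0.14 and −0.87. Within this list Msln, which encodes mesothelin and is named after its value was seen, was 8.57-fold and 7.87-fold higher in the injected nerve. Skeletal muscle genes went opposite ways, with a median of 1.33 and a summed level of 187 against 52.6 in wild-type, and of −1.14 and 23.4 against 35.1 in nude rats. Where the RNA of these genes came from, and its part in the adipocyte values, was not tested. Genes of T and B lymphocytes gave 4 and 2 measured genes, with medians of 0.27 and 0.36, and those of sensory neurons medians of −0.92 and −0.91.

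In the DRG few of the genes could be measured. Of the 9, Cidec, Aqp7, Lep and Pck1 were not well above background on any DRG array, and Ces1d was so on 1 (wild-type injected side, −1.56), which gave no bound. Adipoq was well above background on the injected side of both rat types and on neither contralateral side. The injected-side array was also the brighter of the pair, with a median signal of 88.3 against 57.3 in wild-type and 34.4 against 30.0 in nude rats. Its level was −1.52 on the injected side and −3.92 on the contralateral side in wild-type rats, against 0.20 and −3.07 in nude rats. The injected side was therefore at least 1.16-fold higher in wild-type and at least 2.14-fold higher in nude rats. After normexp the nude log2 ratio of Adipoq was 0.76, under 2-fold. Between the injected sides, the nude DRG was 3.30-fold above the wild-type DRG.

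Fabp4 was at 0.05 on the injected side and −0.04 on the contralateral side in wild-type rats, and the nude rats gave 0.25 and −0.49, ratios of 0.09 and 0.74. Cfd was at 3.60 and 3.42 in wild-type rats, and the nude rats gave 4.09 and 3.47, ratios of 0.18 and 0.63. Both were higher on the injected side of nude rats, where 165 and 235 of 9537 genes had a higher ratio. Scd was at 5.17 and 5.22, and at 5.42 and 5.43, with ratios of −0.04 and −0.01 whose sign turned under other scalings. Of the 4 measured genes, 0 were at least 2-fold changed in wild-type rats, where 0.517% of 10831 genes were lower and 0.489% higher by that much, and 1 was at least 2-fold higher in nude rats, where 0.388% of 9537 genes were lower and 0.682% higher. The medians were 0.14 and 0.68, against 0.01 and 0.02 for all genes.

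Of the further fat cell genes, 41 could be measured in the wild-type DRG. Their median was −0.06 and 1 was at least 2-fold higher, against 0.489% of all genes. In the nude DRG 36 could be measured, with a median of 0.06 and 3 at least 2-fold higher, against 0.682% of all genes. Retn was the gene in wild-type rats, at −0.61 on the injected side against −2.05, not well above background, on the other, and so at least 2.18-fold higher, but its log2 ratio was 0.25 after normexp. In nude rats it was at 1.13 and −2.44, again not well above background on the contralateral side, and at least 4.06-fold higher, with a log2 ratio of 1.03 after normexp. The others in nude rats were Cebpb, a C/EBP factor that many cells induce, with a ratio of 1.14, and Ppargc1a, a coactivator of energy metabolism that muscle holds too, at least 2.11-fold higher, both named after their values were seen. After normexp their log2 ratios were 0.96 and 0.46, under 2-fold. Pparg had ratios of 0.12 and 0.72, Lpl −0.06 and −0.13 and Pnpla2 −0.33 and −0.03. Adipoq and Retn were both well above background on the injected side and not on the contralateral side in each rat type. More of all probes were so on the injected side too, 71.5% against 63.5% in wild-type and 57.9% against 55.3% in nude rats.

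Skeletal muscle genes were also higher in the nude DRG of the injected side. Of 10 measured, all 10 were higher and 8 at least 2-fold higher, with a median of 2.12 and a summed level of 143 against 90.5. Of all genes, 5116 of 9537 were higher there and 0.682% at least 2-fold higher. In the wild-type DRG the median of 11 was 0.11, 0 were at least 2-fold higher, and the summed levels were 126 and 120. Pvalb, named after its value was seen, was the largest part of each of these sums. Its log2 levels were 6.52 and 6.26 in the nude and 6.54 and 6.49 in the wild-type DRG. They were between 6.79 and 7.06 in the cord and between 2.32 and 3.63 in the nerves, so Pvalb was high in DRG and cord on both sides. The sums therefore say little of the other muscle genes. Ckm, the creatine kinase of muscle, was at least 3.25-fold higher in nude rats (a log2 ratio of 0.66 after normexp) and 1.24-fold higher in wild-type rats. Myl11, a myosin light chain of fast fibres named after its value was seen, was at least 16.9-fold higher in nude rats. Genes of sensory neurons had medians of 0.18 for wild-type rats and −0.03 for nude rats, those of Schwann cells −0.29 and 0.07 and those of macrophages −0.06 and −0.01. The part of the muscle genes, or of the tissue they come from, in the values of Adipoq, Retn, Fabp4 and Cfd was not tested.

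**Figure D4:**
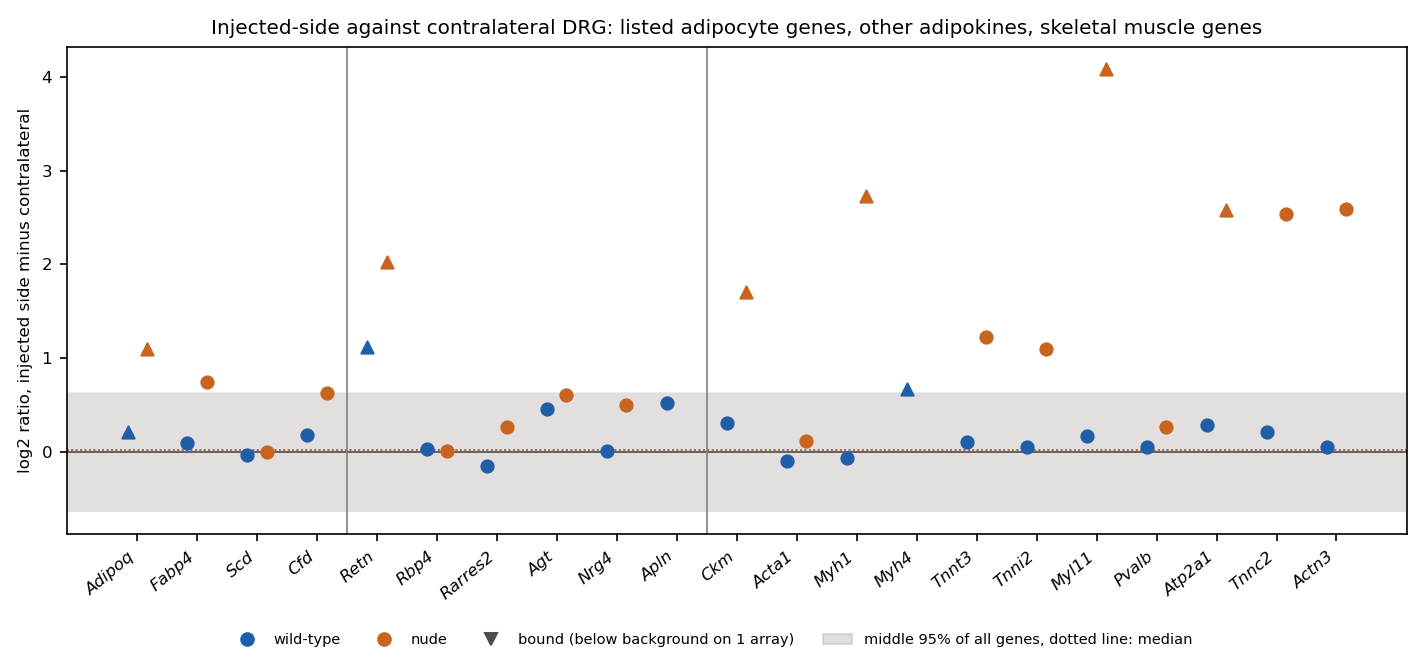
Log2 ratio of the injected-side over the contralateral DRG for the measured listed adipocyte genes, the other adipokines and the skeletal muscle genes, divided by vertical lines (wild-type blue, nude orange, triangles bounds). Shaded bands hold the middle 95% of all genes. In nude rats Adipoq, Fabp4, Retn and 8 muscle genes lie above the band, with Cfd at its edge, and in wild-type rats Retn and Myh4 do, at bounds of 1.12 and 0.67.

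In the spinal cord 7 of the 9 genes were not well above background on the lumbar arrays, and only Scd and Cfd were so on all 4 cord arrays. Scd was at 4.89 in the lumbar and 6.12 in the upper wild-type cord and at 4.96 and 6.07 in the nude cord, 2.34-fold and 2.16-fold lower in the lumbar cord. Cfd was at 1.75 and 1.90 in wild-type and at 2.38 and 2.17 in nude rats, ratios of −0.14 and 0.21. The values for Scd lie close together between the rat types at each place, and those for Cfd cross 0. Adipoq signals in the cord were between 2.48 and 3.13, not well above background on any of the 4 arrays.

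Over the 12 arrays the mean of the 8 measured adipocyte genes, each centred on its own mean, was set against 11356 genes to rank them by likeness. These were the genes well above background on at least 3 arrays, some of the listed genes among them. The 10 most alike outside the listed genes were Dpep1, Car3, Pfkfb1, Mmp27, Rnase1, Calml3, Gsc, Eci1, Retn and Akr1c14. Their Pearson r was from 0.98 to 0.99, as a description over arrays that share tissue. Of the listed genes themselves, Adipoq and Ces1d had r of 0.99, Fabp4 0.97, Cfd and Aqp7 0.95 and Scd 0.31, but each is part of the mean it is set against and was chosen on these arrays, so a high r is partly built in. Car3, a carbonic anhydrase abundant in fat and muscle, was at 4.74 in the contralateral and 1.57 in the injected wild-type nerve and at 4.62 and 0.94 in the nude nerves, 9.04-fold and 12.8-fold lower. Rnase1, a secreted ribonuclease, was at 5.48 and 1.81, and at 6.17 and 1.73. Dpep1, a membrane dipeptidase, had ratios of −1.44 and −1.56 (−0.83 and −0.78 after normexp), and Eci1, an enzyme of fatty acid oxidation, was well above background on all 12 arrays, with levels of 4.79 and 4.53, and of 5.13 and 4.34. Apart from Retn, none of the 10 was in the lists of fat cell genes.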

How the data were processed

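Total RNA pooled from 3 rats was hybridised by the authors to 12 Agilent SurePrint rat arrays, 1 per group. The deposited intensity values are background-subtracted spot signals from Feature Extraction (version 10.5 per the labels and the paper, 10.7.3.1 in the file headers). The deposited log2 values, made by the authors in GeneSpring, hold 30507 probes, whose sorted columns differ by at most 0.00153, and served as an alternative. Flags of 0 or 1 for signal well above background and outlying pixels came with the deposited intensity values. Every deposited column of sample values was mapped to an array.

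Outlier-flagged spots were dropped, log2 signals of a probe were averaged, and the array median was subtracted. RefSeq accessions named 18006 of 30367 probes, and a gene took its brightest probe. Genes well above background on at least 1 array of a pair were compared, with bounds as described above. Called means at least 2-fold. The t-test named in the methods needs replicate arrays and was not run.

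The 10 genes, the lists of other genes and the markers were chosen with earlier results of these data known. Genes named were the 10, the first 3 measured genes of each list, close relatives and the 10 genes with the most similar pattern, and any other is said to be named after its value was seen. The alternatives were other scalings (75th percentile, quantile, cyclic loess), normexp with an offset of 50 followed by quantile normalization, the authors' values, other filters, probe averaging, outlier spots kept and a 3-fold threshold. The procedure was run on simulated data in which only genes well above background on both arrays were changed. The bounds were therefore not checked by it. Python 3.11.15 (numpy 2.4.6, pandas 2.3.3, matplotlib 3.10.9) and R 4.3.3 with limma 3.58.1 were used.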

Additional observations from a re-analysis of the deposited data

Results flagged for a closer look

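The medians of a pair of marker lists had opposite signs in the nerves of the rat types. Skeletal muscle genes had a median log2 ratio of the injected over the contralateral nerve that was 1.33 for wild-type rats and −1.14 for nude rats. Perineurial genes had 0.14 in wild-type and −0.87 in nude rats, but the wild-type value lies within 1 robust SD of all genes (0.43), with 3 genes lower and 3 higher, and the nude value is −0.49 relative to all genes. Skeletal muscle genes were at 1.38 and −0.76 relative to all genes. With 1 array per group, the difference between the rat types was not tested, and their part in the adipocyte values was not tested.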

How the results depend on the processing

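Of 131 values of the listed genes between the nerves under the 9 alternatives run for log2 ratios, 112 were at least 2-fold. Their sign says nothing of stability, since the genes were chosen on it and a floored ratio could not turn. Of 2088 values of the other named genes, 2003 had the sign reported. Values are said to have moved when they differed by over 1 robust SD of all genes' ratios. The wild-type nerve median of −2.52 became −3.06 with no filter and no floor, −1.43 with normexp, and −3.06 without Scd, Cfd and Fabp4. The nude nerve median of −3.12 became −2.17 with the authors' values, −2.17 with quantile normalization and −1.88 with normexp. The nude DRG median of 0.68 became 1.09 without Scd, Cfd and Fabp4, but that is the bound of Adipoq, the only gene then left. The wild-type cord median of −0.52 became 0.29 with no filter and no floor and −0.12 with normexp. The 1 gene at least 2-fold higher in the nude DRG became 0 with a 3-fold threshold, 0 with normexp, 0 when both arrays had to be well above background, and 3 with no filter and no floor. With no filter and no floor 1 gene was at least 2-fold higher and 1 lower in the wild-type DRG, where 0 were. The brown fat median in the nude nerve of −1.36 turned to 0.31 with the mean over probes, 0.058 with no filter and no floor and 0.16 when both arrays had to be well above background. Normexp used the median spot signal.

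Over all genes, the count at least 2-fold lower ranged from 88 to 742 in the wild-type nerve, 213 to 1655 in the nude nerve, 6 to 304 in the wild-type DRG and 1 to 282 in the nude DRG, and at least 2-fold higher from 184 to 831, 168 to 4085, 13 to 299 and 27 to 373. The values relative to all genes, those without Scd, Cfd and Fabp4, and the named genes under each alternative were added after seeing the data. No paired analysis was possible because each group has 1 array, and for the same reason no array could be left out. Levels under the lowest signal well above background have no order, though the setting with no filter and no floor ranks them, and Lep, Cidec, Aqp7 and Pck1 are limited by it.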
